A study of Homo sapiens with 12 samples.

Results

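The genes described were 8 human genes of 2 linked families: *TXNIP* and its relatives *ARRDC1*, *ARRDC2*, *ARRDC3* and *ARRDC4*, which encode α-arrestins, and *MLXIP*, *MLXIPL* and *MLX*, which encode glucose-sensing transcription factors and their dimer partner. They were taken by symbol from the 43236 gene symbols counted, and the choice was made on the measured NXP800 responses of these same libraries, so that the genes were selected on the values of NXP800 against DMSO at 6 h and at 24 h. Those values are therefore given as a description with their errors and without p-values. All 8 symbols were present, and 7 passed the filter on low counts that left 15979 genes for testing, with *MLXIPL* left out. The measurements were RNA-seq counts of MNNG/HOS cells, a chemically transformed line derived from a human osteosarcoma and labelled HOS-MNNG. The cells received the vehicle DMSO or 300 nM NXP800, an orally available small molecule, for 6 h or for 24 h, and each of the 4 conditions had 3 libraries. The labels give no genetic change in any condition, and a single line at a single dose was sampled. The labels do not say whether the replicates of a condition came from separate cultures, and the methods describe repeats as independent experiments only in general terms, so p-values may measure only a technical spread between libraries.

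The 12 libraries held 30810614 to 31947656 counts on genes. Reads on no annotated gene took 6.66 to 8.14% of a library at 6 h and 2.73 to 3.67% at 24 h, so the libraries of the time points stood apart in this share. Of the mesenchymal and osteoblast markers, *VIM*, *COL1A1*, *SPARC* and *RUNX2* were present, whereas *COL1A2* and *ALPL* did not pass the filter on low counts. The keratins *KRT8* and *KRT18* were also present, and the summed epithelial list lay between 1261 and 1519 CPM (counts per 1000000 counts, scaled by TMM) in DMSO and between 1172 and 1332 CPM in NXP800 at 6 h, and between 1734 and 1782 CPM in DMSO and between 1082 and 1359 CPM in NXP800 at 24 h. The keratins made up nearly all of that sum. *EPCAM*, on the same list, went the other way, with means of 6.00 and 6.55 CPM at 6 h in DMSO and NXP800, where libraries overlapped. At 24 h its means were 5.78 and 10.1 CPM, without overlap. *CDH1* did not pass the filter on low counts. The blood cell markers summed to at most 0.859 CPM in a library and endothelial markers to at most 2.05 CPM. The summed mesenchymal list lay between 5029 and 5218 CPM in DMSO and between 4193 and 4331 CPM in NXP800 at 6 h, and between 5912 and 6763 CPM in DMSO and between 3796 and 4632 CPM in NXP800 at 24 h. Most of that sum was *VIM*, with means of 4301 and 3771 CPM at 6 h and of 5368 and 3856 CPM at 24 h in DMSO and NXP800. *RUNX2* went the other way, with means of 22.7 and 37.2 CPM at 6 h and of 27.4 and 35.2 CPM at 24 h. The part of these shifts in the results was not tested. In bulk RNA, fewer cells of a kind and less RNA per cell cannot be told apart.

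α-Arrestins are adaptor proteins that share the arrestin fold and recruit ubiquitin ligases of the NEDD4 family to membrane proteins, which are then internalised and sorted. TXNIP (thioredoxin-interacting protein) binds reduced thioredoxin and promotes the removal of glucose transporters from the cell surface, and is the best known brake on glucose uptake in this family. MondoA, encoded by *MLXIP*, and ChREBP, encoded by *MLXIPL*, form dimers with MLX, enter the nucleus as glucose 6-phosphate accumulates, and bind carbohydrate response elements, which are pairs of E-box-like sites a few bases apart. *TXNIP* and *ARRDC4* are textbook targets of these dimers, which is why their promoters are shown first.

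The promoter sequences are from RefSeq on GRCh38.p14, and each run holds the 250 bases before an annotated start, written 5′ to 3′ on the strand of the gene. The *TXNIP* run is chr1:145996580-145996829 (minus strand) and the *ARRDC4* run is chr15:97960453-97960702 (plus strand). Capitals mark matches to the motifs searched, and ATTGG is CCAAT read on the other strand.
TXNIP: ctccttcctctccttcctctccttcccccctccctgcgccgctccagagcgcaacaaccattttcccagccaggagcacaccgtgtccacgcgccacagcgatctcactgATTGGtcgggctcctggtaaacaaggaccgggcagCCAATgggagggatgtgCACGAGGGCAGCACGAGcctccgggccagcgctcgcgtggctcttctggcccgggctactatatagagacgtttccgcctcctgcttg
ARRDC4: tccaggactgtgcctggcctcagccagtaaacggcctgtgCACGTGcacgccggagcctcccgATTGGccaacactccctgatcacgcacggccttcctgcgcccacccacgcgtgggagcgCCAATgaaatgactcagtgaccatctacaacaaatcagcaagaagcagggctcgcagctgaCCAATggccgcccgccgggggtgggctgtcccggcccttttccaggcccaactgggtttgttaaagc
The motifs searched on both strands were the E-box CACGTG, a pair of CACGNG sites in any orientation with 5 bases between them, the CCAAT box, and TGATGNAA, a letter pattern of ATF4 and C/EBP type. An E-box is itself a CACGNG site, so the first of these motifs can overlap the pair.

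In the *TXNIP* run the capitals hold a pair of CACGNG sites from 88 to 72 bases before the start and CCAAT boxes at 140 to 136 and at 105 to 101 bases before it. In *ARRDC4* they hold an E-box at 210 to 205 bases before the start, with no partner CACGNG site at the required distance, and 3 CCAAT boxes. Of 35116 RefSeq windows of the same 250 bases, 0.0655% held the pair of CACGNG sites (23 windows), 6.34% an E-box, 32% a CCAAT box and 3.14% the ATF4 type pattern. All 8 genes matched the RefSeq table, with 11 annotated starts between them, since *TXNIP*, *ARRDC2* and *ARRDC3* had a pair of starts each. The *MLX* window held an E-box at 50 to 45 bases and a CCAAT box at 66 to 62 bases before the start. The windows of *ARRDC1*, *MLXIP*, the first start of *ARRDC3* and the second start of *ARRDC2* held a CCAAT box each, and the *MLXIPL* window held no match. That window (chr7:73624523-73624772, minus strand) lies inside the extent of *MLXIPL*, whose 5′ end is at 73647907. Sequence before that outer end was not searched. None of the 11 windows held TGATGNAA. A match is a description of letters and not evidence that a factor binds there.

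*TXNIP* (chromosome 1, 145992435 to 145996579, minus strand, GRCh38.p14) had the highest NXP800 to DMSO ratio of the group at both time points. At 6 h its levels were 4.75, 3.62 and 4.37 CPM in DMSO and 47.7, 36.6 and 38.9 CPM in NXP800 (replicates 1 to 3). At 24 h they were 4.98, 3.09 and 2.92 CPM in DMSO and 88.0, 101.6 and 94.2 CPM in NXP800. Every NXP800 library lay far above every DMSO library, and the 24 h NXP800 libraries lay above the 6 h ones without overlap. The log2 fold change was 3.27 (SE 0.154, a 9.66-fold ratio) at 6 h and 4.69 (SE 0.160, a 25.8-fold ratio) at 24 h. These were ranks 43 and 15 from the top among the 15979 genes. Ratios of libraries with the same replicate number ran from 8.90 to 10.1 at 6 h and from 17.7 to 32.9 at 24 h, the lowest belonging to the pair whose DMSO library had 4.98 CPM. The means were 41.1 ± 5.85 CPM (SD, n = 3) in NXP800 at 6 h and 94.6 ± 6.83 CPM (SD, n = 3) at 24 h, beside 4.25 ± 0.573 and 3.66 ± 1.15 CPM in DMSO.

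*ARRDC4* (chromosome 15, 97960703 to 97973833, plus strand), whose product like TXNIP limits glucose uptake, had the second highest ratio but a low level. In DMSO it had 1.49, 0.851 and 0.972 CPM at 6 h and 0.903, 0.807 and 0.652 CPM at 24 h. In NXP800 it had 6.84, 5.29 and 5.34 CPM at 6 h and 4.65, 6.02 and 5.01 CPM at 24 h. The NXP800 libraries did not overlap the DMSO libraries at either time, and the NXP800 libraries of the 2 times overlapped each other. The log2 fold change was 2.40 (SE 0.203) at 6 h and 2.72 (SE 0.218) at 24 h, ranks 110 and 112 from the top. The DMSO values rest on 19 to 47 counts per library, and its standard errors were the largest of the group.

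*ARRDC3* (chromosome 5, 91368631 to 91383317, minus strand), an adaptor for the ubiquitination of β-adrenergic receptors and integrins, came next. At 6 h it had 14.1, 13.7 and 13.4 CPM in DMSO and 35.8, 33.7 and 26.9 CPM in NXP800. At 24 h it had 9.73, 6.89 and 6.49 CPM in DMSO and 18.5, 16.1 and 12.2 CPM in NXP800. NXP800 libraries lay above DMSO libraries of their own time point, but the 24 h NXP800 libraries overlapped the 6 h DMSO libraries with lower levels in both conditions at 24 h. The log2 fold change was 1.23 (SE 0.152) at 6 h and 1.02 (SE 0.163) at 24 h.

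*ARRDC1* (chromosome 9, 137605686 to 137615360, plus strand), known for driving the budding of small vesicles from the plasma membrane, had the lower of its responses at 6 h. Its levels were 6.24, 7.97 and 7.23 CPM in DMSO and 8.72, 8.62 and 9.61 CPM in NXP800 at 6 h. At 24 h they were 7.26, 8.97 and 9.95 CPM in DMSO and 13.3, 16.5 and 16.0 CPM in NXP800. The gap between conditions was narrow at 6 h, where the highest DMSO library stood just below the lowest NXP800 library, and wide at 24 h. The log2 fold change was 0.33 (SE 0.132) at 6 h and 0.81 (SE 0.128) at 24 h.

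*ARRDC2* (chromosome 19, 18001124 to 18014102, plus strand), a less studied relative, ran the other way in time. It had 12.8, 13.2 and 15.1 CPM in DMSO and 18.3, 18.7 and 19.8 CPM in NXP800 at 6 h. At 24 h it had 13.7, 15.7 and 13.6 CPM in DMSO and 17.1, 17.8 and 16.4 CPM in NXP800. The conditions did not overlap at either time point, with log2 fold changes of 0.47 (SE 0.090) at 6 h and 0.25 (SE 0.091) at 24 h. The order of the α-arrestin ratios was thus *TXNIP*, *ARRDC4*, *ARRDC3*, *ARRDC2* and *ARRDC1* at 6 h, with *ARRDC1* ahead of *ARRDC2* at 24 h. Exons of other genes overlap 5.75% of the exon length of *ARRDC1*, 9.53% of *ARRDC2* and 2.91% of *ARRDC3*, and none of *TXNIP* or *ARRDC4*. *ARRDC5*, the remaining human member of the ARRDC series and not one of the 8 genes, had no count in 11 libraries and 1 count in the other, against 3 counts per library (0.0939 to 0.0974 CPM, here without TMM scaling) that a count of 0 allows.

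**Figure D1:**
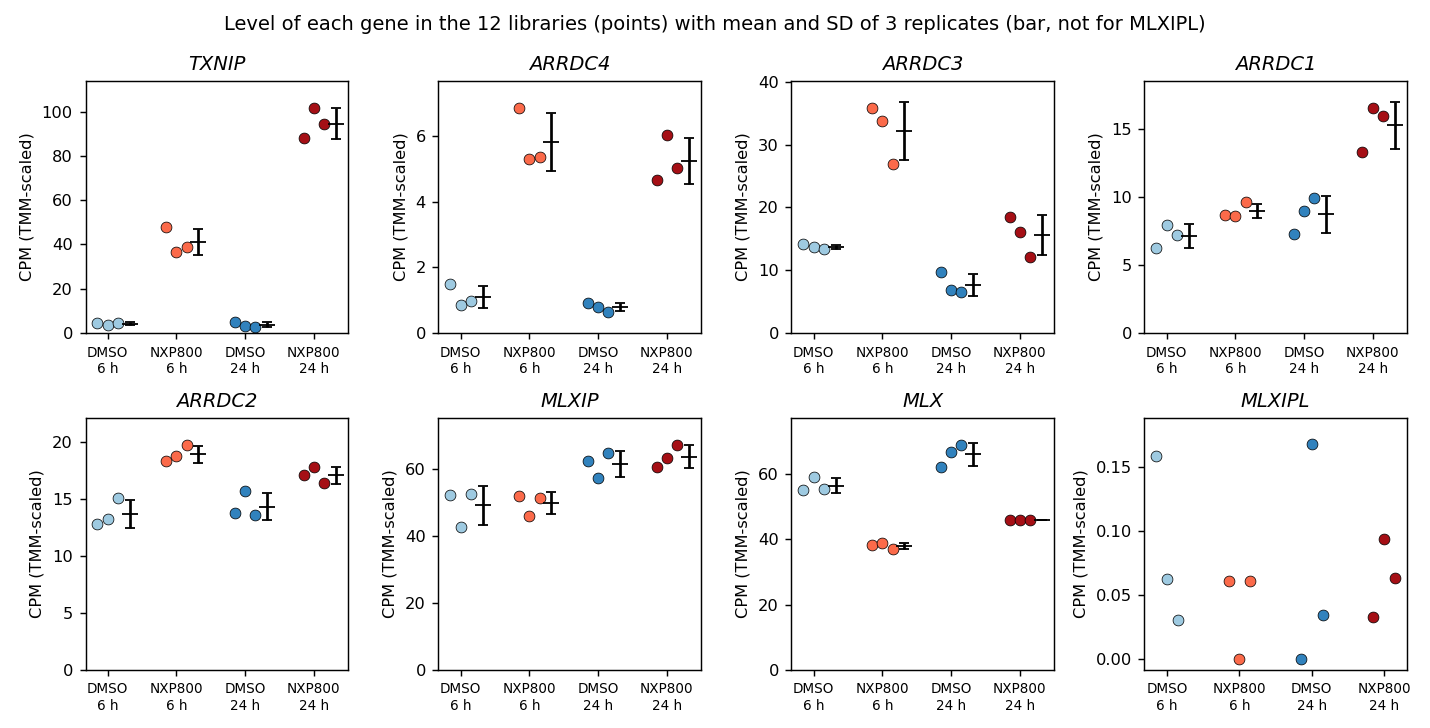
Level of each of the 8 genes in CPM (TMM-scaled, linear axes with a separate scale for each gene) in the 12 libraries, shown as points, with the mean and SD of the 3 replicates beside them, except for *MLXIPL*, where only the libraries are drawn. *TXNIP* lies between 36.6 and 101.6 CPM in NXP800 and at or below 4.98 CPM in DMSO, *MLXIP* overlaps between conditions, and *MLX* is the only tested gene of the group that is lower in NXP800 at both times.

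Among the transcription factors, *MLX* (chromosome 17, 42567100 to 42573203, plus strand), the obligate dimer partner, was lower in NXP800. It had 55.0, 59.1 and 55.4 CPM in DMSO and 38.2, 38.7 and 36.9 CPM in NXP800 at 6 h. At 24 h it had 62.3, 66.9 and 69.0 CPM in DMSO and 45.9 CPM in each NXP800 library. No NXP800 library reached the lowest DMSO library at either time point. The log2 fold change was -0.57 (SE 0.061) at 6 h and -0.52 (SE 0.061) at 24 h, the smallest standard errors of the group. Exons of *PSMC3IP* on the opposite strand overlap 18.2% of the *MLX* exon length, and since the strand setting of the counting is not given in the sources used here, reads from that overlap cannot be assigned with certainty.

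*MLXIP* (chromosome 12, 122078756 to 122147344, plus strand), which encodes MondoA, showed no separation between the conditions. Its levels were 52.2, 42.4 and 52.6 CPM in DMSO and 51.8, 45.9 and 51.3 CPM in NXP800 at 6 h. At 24 h they were 62.2, 57.1 and 64.7 CPM in DMSO and 60.4, 63.1 and 67.1 CPM in NXP800. DMSO and NXP800 libraries overlapped at both time points. The log2 fold change was 0.02 (95% interval -0.16 to 0.20) at 6 h and 0.05 (95% interval -0.13 to 0.23) at 24 h.

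*MLXIPL* (chromosome 7, 73593202 to 73647907, minus strand), which encodes ChREBP, the liver and fat form of the sensor, was barely detected. Its counts were 5, 2 and 1 in DMSO and 2, 0 and 2 in NXP800 at 6 h, and 0, 5 and 1 in DMSO and 1, 3 and 2 in NXP800 at 24 h. With at most 5 counts per library no difference between conditions was detectable at this depth, and no fold change is given.

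In the fit over all genes, 5 of the 7 members lay below an adjusted p of 0.05 as higher (*TXNIP* and *ARRDC1* to *ARRDC4*) and 1 as lower (*MLX*) at each time point, which for these genes is a count and not a test. Of all 15979 genes, 25.0% passed as higher and 27.8% as lower at 6 h, and 27.5% as higher and 28.6% as lower at 24 h. Because the genes were chosen on these contrasts, nothing is read from the comparison of these shares.

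**Figure D2:**
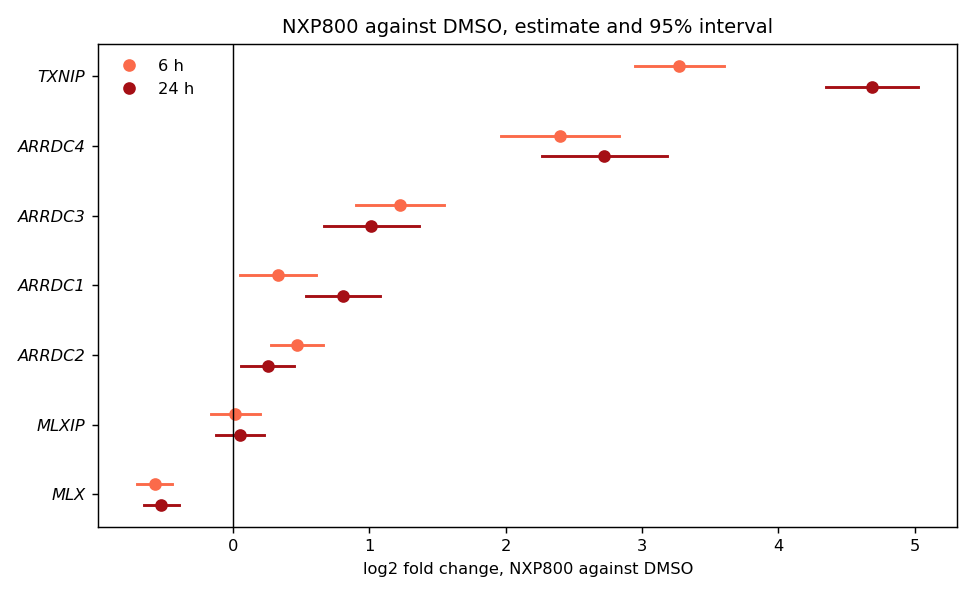
Log2 fold change of NXP800 against DMSO at 6 h (light red) and 24 h (dark red) for the 7 tested genes, with points for the estimates and lines for the 95% intervals of the edgeR fit. *TXNIP* has the largest values, 3.27 and 4.69, the intervals of *MLXIP* span 0 at both times, and *MLX* lies below 0 at both.

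The levels of the genes relative to each other were compared per kilobase of exon (CPM per kb over the union of GENCODE exons). In DMSO at 6 h the order was *MLX* (13.3 ± 0.524 CPM per kb, SD, n = 3), *MLXIP* (3.54 ± 0.414), *ARRDC2* (2.95 ± 0.264), *ARRDC3* (2.76 ± 0.0708), *ARRDC1* (1.89 ± 0.230), *TXNIP* (1.18 ± 0.159), *ARRDC4* (0.272 ± 0.0834) and *MLXIPL* (0.0174 ± 0.0138). Libraries of *MLXIP* and *ARRDC2*, and of *ARRDC2* and *ARRDC3*, overlapped, and the other neighbours in this order did not. In DMSO at 6 h *TXNIP* thus ranked below every gene of the group except *ARRDC4* and *MLXIPL*. In DMSO at 24 h its place was the same by the means, next to *ARRDC3* (1.02 ± 0.318 against 1.55 ± 0.355 CPM per kb), with overlapping libraries. In NXP800 at 24 h *TXNIP* stood first with 26.3 ± 1.89 CPM per kb, followed by *MLX* with 10.8 ± 0.00653, *MLXIP* with 4.58 ± 0.245 and *ARRDC1* with 4.03 ± 0.457. *ARRDC2* and *ARRDC3* followed at 3.68 ± 0.159 and 3.13 ± 0.641, and libraries of each neighbouring pair from *MLXIP* to *ARRDC3* overlapped. *ARRDC4* at 1.29 ± 0.174 CPM per kb remained below all of these. In NXP800 at 6 h *TXNIP* (11.4 ± 1.62 CPM per kb) stood above *MLX* (8.92 ± 0.216), but with the longest transcript as the length *MLX* came first at 14.7 and *TXNIP* at 14.1, with overlapping libraries.

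The response at 24 h was set beside that at 6 h as the difference of the log2 fold changes, 24 h minus 6 h, from the same edgeR model. This difference is made of the 2 responses on which the genes were selected, so its values are a description with their errors and no p. *TXNIP* had the largest difference among the 7 members, 1.42 log2 units (SE 0.223, a 2.67-fold larger ratio at 24 h), and it lay between 1.28 and 1.70 over all alternatives, with 1.70 without replicate 1 of DMSO at 24 h. The 3 DMSO libraries of each time overlapped for *TXNIP*, whereas the NXP800 libraries did not, as given above. For *ARRDC1* the difference was 0.48 (SE 0.183, 95% interval 0.09 to 0.87) and for *ARRDC4* 0.33 (-0.33 to 0.98), or 0.05 without replicate 1 of DMSO at 6 h. The differences of *ARRDC3* (-0.21, 95% interval -0.68 to 0.26) and *ARRDC2* (-0.21, -0.48 to 0.06) were negative with intervals that held 0. Those of *MLX* (0.05, -0.13 to 0.23) and *MLXIP* (0.03, -0.22 to 0.29) were near 0, and *MLX* had 0.12 with library size as the only scaling. Of all 15979 genes, 12% had an adjusted p below 0.05 for this difference as higher and 13.8% as lower. With library size as the only scaling, the share of higher among all calls moved from 46.6 to 59.6%.

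The untreated level over time was a further contrast, which the choice did not name. It uses the same DMSO libraries as the 2 responses that chose the genes. It is thus not independent of that choice, which limits its p-values for the members. Time in culture and the set of libraries coincide here and cannot be told apart, and the share of reads on no annotated gene, lower at 24 h, moved with it and its part was not tested. Of all genes 21.0% passed as higher and 20.6% as lower in DMSO at 24 h against 6 h, and of the 7 members 2 passed as higher and 1 as lower. *ARRDC3* fell by 0.83 on the log2 scale (SE 0.164, edgeR adjusted p = 0.000755), from 13.8 ± 0.353 to 7.70 ± 1.77 CPM (SD, n = 3), with no overlap between the libraries. *MLXIP* rose by 0.32 (SE 0.085, edgeR adjusted p = 0.00647) and *MLX* by 0.23 (SE 0.061, edgeR adjusted p = 0.00701), each without overlap. Both rises were lost when libraries were scaled by size alone (0.17 with edgeR adjusted p = 0.127, and 0.08 with edgeR adjusted p = 0.308, the highest of the alternatives run for each, against lowest values of 0.000604 and 0.0042). That scaling moved the median of all genes by -0.15 and the share of higher among all calls from 50.5 to 26.5%. *ARRDC3* passed under every alternative run, between -1.04 and -0.73 (edgeR or DESeq2 adjusted p between 1.09e-11 and 0.00558). *TXNIP* (-0.21, edgeR adjusted p = 0.382), *ARRDC4* (-0.48, edgeR adjusted p = 0.145), *ARRDC1* (0.29, edgeR adjusted p = 0.0941) and *ARRDC2* (0.06, edgeR adjusted p = 0.607) did not pass. Without replicate 1 of DMSO at 24 h, *TXNIP* (-0.50, edgeR adjusted p = 0.0285) and *ARRDC1* (0.40, edgeR adjusted p = 0.0256) passed, and the number of members past the threshold went from 3 to 5. The adjusted p of *TXNIP* ranged from 0.0285 to 0.801 over all alternatives, and that of *ARRDC1* from 0.0256 to 0.447, with 0.0415 under the shared replicate block. That block joins equal replicate numbers across the time points. DMSO libraries of the same number did not deviate together across times (r = -0.0886 to 0.0885), which limits that value.

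**Figure D3:**
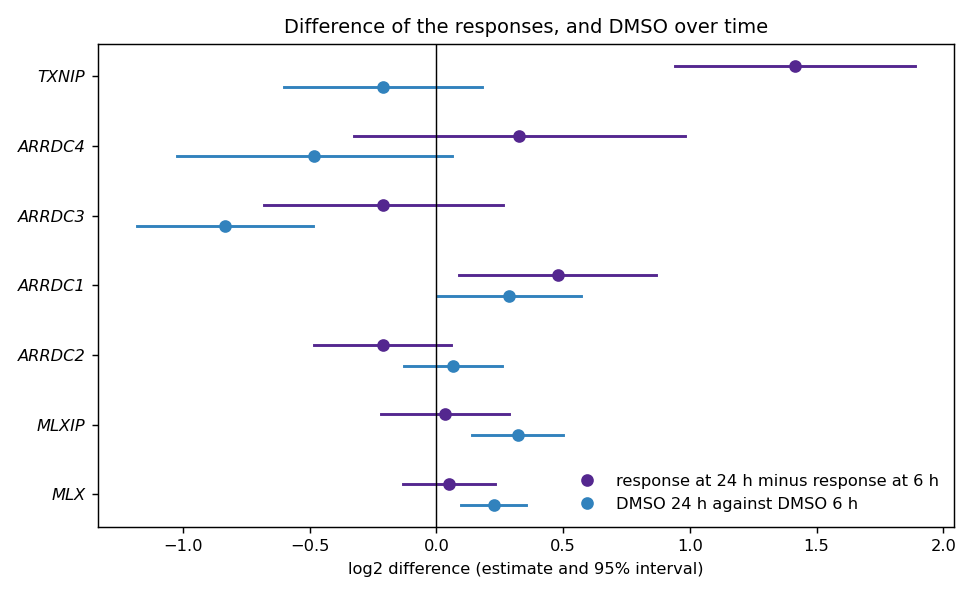
Difference of the NXP800 responses, 24 h minus 6 h (purple), and DMSO at 24 h against DMSO at 6 h (blue) for the 7 tested genes on the log2 scale, with points for the estimates and lines for the 95% intervals of the edgeR fit. *TXNIP* has the largest difference of responses, 1.42, and *ARRDC3* the largest fall in DMSO, -0.83.

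The genes whose course over the 12 libraries was most like that of *TXNIP*, by the root mean square difference of centred log2 CPM among 12033 genes, were *SPX* (0.41), *NIBAN1* (0.43), *UNC5B* (0.45), *SLFN5* (0.48) and *ADM2* (0.50). These encode the peptide hormones spexin and adrenomedullin 2, a netrin receptor, a stress-regulated protein and a member of the Schlafen family. For *ARRDC4* they were *CEBPB* (0.23), *VEGFA* (0.26), *IFI16* (0.28), *C17orf107* (0.32) and *KLF4* (0.32), which include the transcription factors C/EBPβ and KLF4 and the angiogenic growth factor VEGF-A. The distance between *TXNIP* and *ARRDC4* themselves was 0.90, so that among the 15978 other genes tested, with no limit on their level, *ARRDC4* was the 50th nearest to *TXNIP* and *TXNIP* the 875th nearest to *ARRDC4*. These distances describe the same libraries that chose the genes and carry no test.

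Other genes of the pathway were described from lists written from general knowledge with earlier results of these data known. They were called by edgeR's quasi-likelihood test at a Benjamini-Hochberg adjusted p below 0.05, and are read beside the shares of all genes given above and beside a median log2 fold change over all genes of -0.05 at 6 h and -0.0033 at 24 h. Of 20 further targets attributed to MondoA and ChREBP, 13 were tested, and 3 rose and 8 fell at 6 h (median -0.47) and 3 rose and 9 fell at 24 h (median -0.74). The risers at both times were *RGS16*, a regulator of G protein signalling (2.41 and 2.51), *HK2*, a hexokinase (0.89 and 0.74), and *KLF10*, a glucose-responsive repressor (0.84 and 0.61), whose edgeR adjusted p were at most 0.000382. Genes of fatty acid synthesis and glycolysis were among those that fell, such as *ELOVL6* (-0.99 and -0.42), *FASN* (-0.47 and -1.03), *PFKFB3* (-0.69 and -0.59) and *LDHA* (-0.57 and -0.97), with edgeR adjusted p of at most 0.00397. *ME1* passed at neither time (0.05 and -0.04), and *SCD* fell at 24 h (-1.29, edgeR adjusted p = 0.000468) but not at 6 h (-0.58, edgeR adjusted p = 0.0663, or 9.24e-07 with the replicate block within each time point). At 6 h *SCD* passed in 5 of 14 alternatives. *ACACA*, counted as falling at 6 h, did not pass there in 4 of 14 alternatives (edgeR adjusted p up to 0.0755). Genes of this list that were not tested included *PKLR*, *G6PC1*, *FGF21*, *THRSP* and *GCKR*, which are known for their roles in the liver. *TXNIP* and *ARRDC4* thus stood with *RGS16*, *HK2* and *KLF10* in direction, while most tested targets on this list went the other way. The list pools targets attributed to either factor, and *MLXIPL*, which encodes ChREBP, had at most 5 counts in a library. The activity of either factor was not tested.

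Of 12 genes of glucose entry and glucose 6-phosphate handling, through which the sensors read glucose, 8 were tested, and 3 rose and 3 fell at each time (median -0.03 and 0.12). *SLC2A1*, the main glucose transporter and a cargo of TXNIP, fell by 0.61 and 0.79 on the log2 scale, and *GPI*, which moves glucose 6-phosphate into glycolysis, fell by 0.54 and 0.82. *HKDC1*, a hexokinase-like enzyme, rose by 2.73 and 4.01 from a mean of 0.665 ± 0.164 CPM in DMSO at 6 h. *HK1* and *G6PC3* did not pass at 6 h, nor *SLC2A3* and *SLC2A4* at 24 h, and *HK1* passed at 6 h with the block (-0.15, edgeR adjusted p = 0.0117). The largest edgeR adjusted p among the 3 genes named with values at both times was 7.24e-05. At 24 h *G6PC3*, counted as a riser, did not pass in 4 of 14 alternatives (edgeR adjusted p up to 0.162). *HK1*, counted there as falling, did not pass in 3 (edgeR adjusted p up to 0.0767).

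Of 9 ubiquitin ligases of the NEDD4 family, 6 rose and 2 fell at 6 h (median 0.39) and 4 rose and 1 fell at 24 h (median 0.16). Which of the 9 are recruited by α-arrestins was not tested. *NEDD4* (1.01) and *NEDD4L* (1.03) led at 6 h (edgeR adjusted p = 5.19e-08 and 6.09e-07), and had 0.10 and 0.08 at 24 h (edgeR adjusted p = 0.341 and 0.529). *SMURF1* (0.82 and 0.34) and *ITCH* (0.65 and 0.36) passed at both times, with edgeR adjusted p of at most 0.000972. *HECW2* passed at neither time and *HECW1* not at 24 h. *WWP1*, counted as falling at 6 h, did not pass there in 4 of 14 alternatives (edgeR adjusted p up to 0.0808). Outside the ARRDC series, 5 of 8 other arrestin-fold genes were tested, of which 1 rose and 3 fell at each time. *ARRB1*, β-arrestin 1, fell by 1.51 and 2.29, and *VPS26B* and *VPS26A*, retromer subunits with the same fold, had -0.85 and -0.81 and 0.54 and 0.66, with edgeR adjusted p of at most 3.07e-06 for the 3 genes. *VPS26C* passed at neither time (-0.16 and -0.02), although it did at 6 h with the block (edgeR adjusted p = 0.0266). *ARRB2*, counted as falling at 6 h, did not pass there in 2 of 14 alternatives (edgeR adjusted p up to 0.0562). Exons of other genes overlap 25.9% of *ARRB1* and 23.9% of *ITCH*.

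Of 11 genes of the thioredoxin system, which includes the thioredoxin that TXNIP binds, 2 rose and 7 fell at 6 h (median -0.26) and 1 rose and 7 fell at 24 h (median -0.27). *TXN*, thioredoxin itself, fell at 6 h (-0.26, edgeR adjusted p = 0.0162, or 0.0752 without replicate 2 of NXP800 at 6 h) and had -0.12 at 24 h (edgeR adjusted p = 0.237, or 0.0344 with the block within each time point). *PRDX1* (-0.56 and -0.74) and *PRDX3* (-0.43 and -0.76), peroxiredoxins of the cytosol and the mitochondria, fell at both times (edgeR adjusted p at most 0.000122), and 29.8% of the *PRDX1* exon length is shared with other genes. *TXNRD1*, the cytosolic thioredoxin reductase, rose at 6 h (0.83, edgeR adjusted p = 0.000395) and had 0.35 at 24 h (edgeR adjusted p = 0.0764, or 0.00056 with the block). At 24 h *TXNRD1* passed in 7 of 14 alternatives. *TXNRD2* and *PRDX5* did not pass at 6 h, nor did *TXNRD3* at 24 h. *PRDX4*, counted as falling at 24 h, did not pass there in 5 of 14 alternatives (edgeR adjusted p up to 0.17). Of 6 tested subunits of AMPK, the energy sensor that phosphorylates TXNIP, 4 rose at each time (median 0.39 and 0.34), led by *PRKAB2* (1.21 and 1.34) and *PRKAA2* (0.94 and 0.44), with edgeR adjusted p of at most 0.0121. *PRKAA2* did not pass at 24 h without replicate 1 of DMSO or replicate 3 of NXP800 at that time (edgeR adjusted p = 0.0679 and 0.0615). *PRKAA1*, counted as a riser at 24 h, did not pass there in 2 of 14 alternatives (edgeR adjusted p up to 0.0782). The subunits that did not pass were *PRKAA1* and *PRKAG2* at 6 h and *PRKAG1* and *PRKAG2* at 24 h, of which *PRKAA1* (0.19, edgeR adjusted p = 0.00332) and *PRKAG1* (-0.18, edgeR adjusted p = 0.0213) did with the block within each time point. Of 14 alternatives, *PRKAA1* passed at 6 h in 7 and *PRKAG1* at 24 h in 3. Among the 3 other partners of MLX, *MXD1* (2.57 and 1.90) and *MNT* (0.69 and 0.65) rose at both times (edgeR adjusted p at most 2.05e-06), and *MXD4* did not pass (-0.31 and -0.06), although it did at 6 h with the block (-0.31, edgeR adjusted p = 0.0216).

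**Figure D4:**
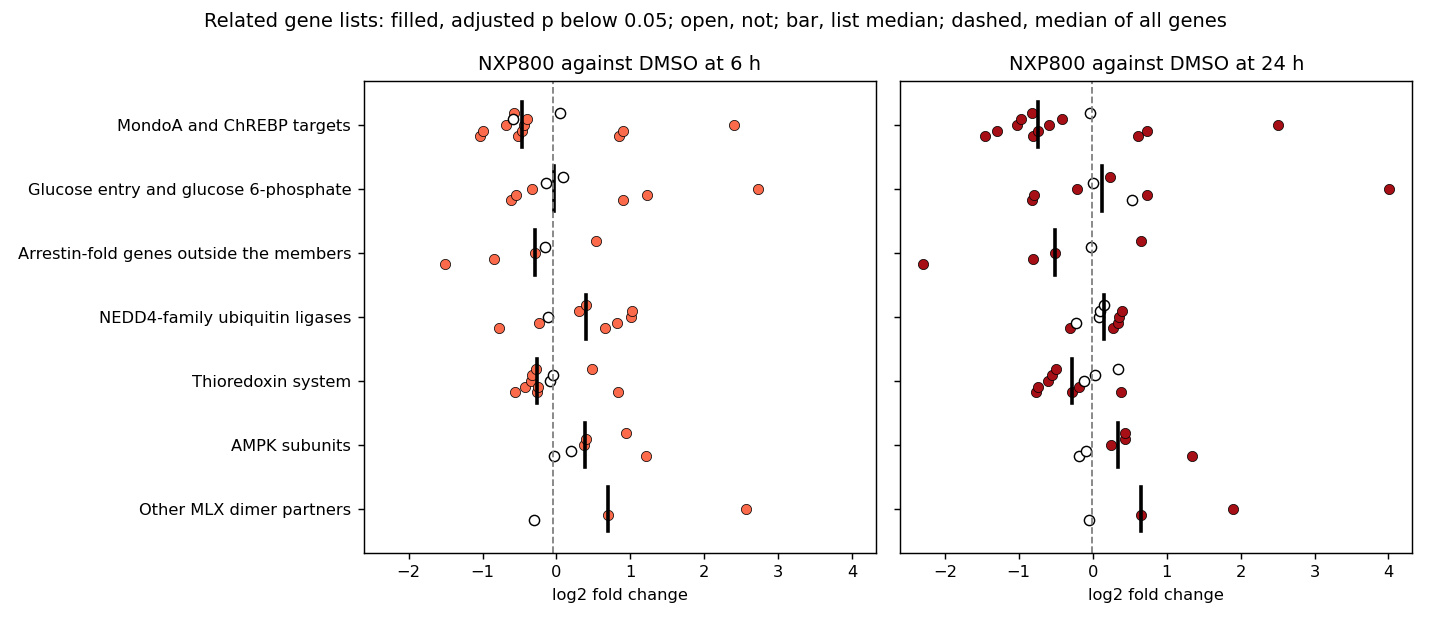
Log2 fold change of NXP800 against DMSO at 6 h (left) and 24 h (right) for the tested genes of 7 related lists, 1 point per gene, filled where the edgeR adjusted p was below 0.05 and open where it was not, with a bar at the list median and a dashed line at the median of all genes. The list of MondoA and ChREBP targets has its median at -0.47 and -0.74, with *RGS16* at 2.41 and 2.51 on the far right of it.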

How the data were processed

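The 12 files hold raw counts per gene symbol that the authors deposited, 1 file per library of MNNG/HOS cells. According to the methods, polyA RNA went through a strand-specific library kit, and paired reads were aligned to hg38 with a RefSeq annotation of GRCh38.p14. The submitters' processing notes name fastp 0.20.1, STAR 2.7.5a and HTSeq 0.12.4. The strand setting and counting mode are not given in the sources used here. The dose of 300 nM comes from the methods. Groups were taken from the sample titles.

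The members and the lists were chosen with earlier results of these data known. Lines of the counter that name no gene (8.02 to 12.2% of a library's reads) entered neither library sizes nor tests. The analysis used edgeR 4.0.16 under R 4.3.3, in which filterByExpr kept 15979 of 43236 symbols, scaling was by TMM, and the quasi-likelihood test was fitted in 1 model of the 4 conditions with Benjamini-Hochberg adjustment over all tested genes. Calls were at an adjusted p below 0.05, and log2 CPM for the likeness of genes used a prior count of 2. At the depth of 30810614 to 31947656 counts per library, the members tested had 19 to 3243 counts in a library. Counting error weighs most on *ARRDC4* (19 to 47) and *TXNIP* (85 to 150) in DMSO, and floors cover counting error only. No pair of replicates agreed within sampling noise (chi-square divided by its degrees of freedom, 7.95 to 28.6). Same-numbered NXP800 and DMSO libraries of a time point deviated together (r = 0.159 to 0.329 over genes, against at most 0.058 for other numbers), whereas same numbers across time points did not (-0.127 to 0.0885), so the numbers pair libraries within a time point only. The main model did not include this pairing, so its errors and p-values do not use it. The replicate block within each time point does, and with it the difference of responses had 6283 calls in place of 4132. The alternatives were DESeq2 1.42.0, DESeq2 size factors, library size only, other count filters, fits of the groups compared alone, replicate blocks, a threshold of 0.01, and each library left out. Only the main edgeR fit was run on simulated counts, with a single spread for all genes and no pairing of replicates. The outcome is not quoted here and does not cover the alternatives. The genes named were all 8 members, the 3 largest rises and falls of each list at each time (of which some are given) past the threshold and at 1 or more in mean log2 CPM, genes that did not pass where 5 or fewer, and the 5 genes most like *TXNIP* and *ARRDC4*. *TXN* was named for its role. Gene positions come from RefSeq, and exon lengths and overlaps from GENCODE v44, whose models can differ from those counted. Amino acid sequences were not used here.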

Additional observations from a re-analysis of the deposited data

Results flagged for a closer look

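A closer look is warranted at results whose NXP800 response differed between the time points, by the interaction test of edgeR with Benjamini-Hochberg adjustment over all genes. The α-arrestin and MLX family genes were selected on these responses and are left out of it. Among genes of the related lists, the difference of 24 h minus 6 h was positive for *ELOVL6* (0.57, edgeR adjusted p = 0.00354), which elongates fatty acids, *SLC2A3* (0.34, edgeR adjusted p = 0.018), a glucose transporter, *HECW1* (0.55, edgeR adjusted p = 0.0463) and *PRDX5* (0.43, edgeR adjusted p = 0.0153), a peroxiredoxin. It was negative for the lipogenic genes *FASN* (-0.56, edgeR adjusted p = 0.0252) and *ACLY* (-0.30, edgeR adjusted p = 0.0258), for *LDHA* (-0.40, edgeR adjusted p = 0.0165) and for *ARRB1* (-0.78, edgeR adjusted p = 0.00713). It was also negative for the ubiquitin ligases *NEDD4* (-0.92, edgeR adjusted p = 3.75e-05), *NEDD4L* (-0.94, edgeR adjusted p = 0.000227) and *SMURF1* (-0.48, edgeR adjusted p = 0.00263). The redox genes *TXNRD2* (-0.41, edgeR adjusted p = 0.0164) and *PRDX3* (-0.34, edgeR adjusted p = 0.0227) had negative values, as did *MXD1* (-0.66, edgeR adjusted p = 0.0409). *PRKAG1* had -0.55 (edgeR adjusted p = 0.00199), with 61.8% of its exon length overlapped by other genes. Of all genes, 12% passed this test as higher and 13.8% as lower. The values of *SLC2A3* and *TXNRD2* did not pass without replicate 1 of NXP800 at 6 h (edgeR adjusted p = 0.055 and 0.0532). With single libraries left out in turn, *HECW1* and *MXD1* did not pass in 9 of 12 cases each, *FASN* in 6, *ACLY* in 5 and *PRDX3* in 4, and their highest adjusted p over all alternatives were 0.108, 0.0947, 0.0714, 0.0827 and 0.0639. With the replicate block within each time point, 10 further list genes passed, named here after their values were seen. These were *SCD* (-0.77, edgeR adjusted p = 6.28e-06), *ACACA* (-0.42, 0.000113), *TXNRD1* (-0.52, 0.000369), *PRKAA2* (-0.50, 0.000464), *ITCH* (-0.29, 0.00646), *GPI* (-0.29, 0.00897), *TXN2* (-0.26, 0.00932), *TXNRD3* (-0.44, 0.01) and *KLF10* (-0.23, 0.0266) with negative values, and *HKDC1* (1.25, 0.0149) with a positive one. *HECW1* also missed the threshold under the shared replicate block (edgeR adjusted p = 0.0518).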

How the results depend on the processing

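No value past its threshold changed sign under any alternative run. Of values that did not pass, 3 of the members' 28 (*MLXIP* at 6 h and in the difference of responses, and *ARRDC2* in DMSO over time) and 29 of the list genes' 216 changed sign under at least 1 alternative. Of the members' values under alternatives, 410 were alike. Gains and losses of a call were tallied in DMSO over time only, where 3 values passed the threshold only under an alternative and 2 lost it. A further 5 moved by more than the pooled SD of the gene's log2 CPM between replicates, among them *MLXIP* (0.14) and *MLX* (-0.43) at 24 h with library size only. For NXP800 against DMSO the members' count, which tests nothing, was 6 at each time. It lay between 5 and 6 over all alternatives at each time. In DMSO over time, the shared replicate block changed no member's call other than that of *ARRDC1*. The count of members past the threshold in the difference of responses, which is made of the values that selected them and tests nothing, was 2 in place of 1 with library size only, with no filter on low counts, with the shared replicate block and with the replicate block within each time point, and lay between 1 and 2 with single libraries left out; it was 2 without replicate 1 of DMSO at 6 h, replicate 3 of DMSO at 24 h or replicate 1 of NXP800 at 24 h. Over all genes that difference had 4132 calls, 2236 at an adjusted p below 0.01 and 6283 with the replicate block within each time point. In DMSO over time the members' count of 3 was 1 with library size only and lay between 3 and 5 with single libraries left out. At 24 h the count of AMPK subunits was 4, and 2 at an adjusted p below 0.01. For single genes of the lists, 3053 values kept their side, 96 were gained and 87 lost. With the longest transcript as the length, 21 of 28 levels per kilobase moved by more than their SD. Depth limits *MLXIPL*, which had at most 5 counts, and *ARRDC4* in DMSO. In every case the cause was not tested.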
